A study of Mus musculus with 24 samples.

Results

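Accessible chromatin was examined in 4 windows of mouse chromosome 11, each 5 Mb long, to describe how the germinal centre (GC) B cell libraries of single mice varied there. In the mm10 build the windows run from 30 to 35 Mb (window A), 40 to 45 Mb (window B), 75 to 80 Mb (window C) and 85 to 90 Mb (window D). A peak belonged to a window when its start lay inside it, which gave 973 of the 65483 peaks of the consensus set, 190 in A, 119 in B, 376 in C and 288 in D. The windows were chosen because they were rich in peaks whose accessibility changed in C against WT, so that contrast is described here and nothing is read from it.

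GC B cells were sorted from spleens of mice immunized with sheep red blood cells for 10 days for ATAC-seq, an assay that reads open chromatin from the places where a transposase inserts adapters. All mice carried a Cg1-Cre allele, which is active in B cells that transcribe the immunoglobulin gamma 1 constant region, so the WT mice (n = 4) carried the recombinase without a floxed gene. C mice (n = 4) carried in addition 1 floxed Crebbp allele, K mice (n = 4) 1 floxed Kmt2d allele, and CK mice (n = 5) 1 of each. The description of the ATAC-seq samples gives 8-week-old females on a C57BL/6J background, whereas the general methods say that sex was not part of the design. Each library is labelled as a replicate of its genotype and was counted as 1 mouse.

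CREBBP is an acetyltransferase and KMT2D a methyltransferase, and both act on histones at enhancers. In mouse crosses neighbouring loci of a chromosome are inherited together in long blocks, and lines with engineered alleles are built by such crosses. Crebbp, Kmt2d and the gene that holds Cg1-Cre lie on chromosomes other than chromosome 11. The count table holds fragment numbers and no genotypes of the mice, so whether the patterns described here follow inherited blocks was not tested.

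Libraries held between 17483706 and 21857738 fragments in peaks. At the start sites of 5 B cell and 6 GC B cell marker genes the median over libraries was between 25.3 and 214 counts scaled to the library's total (CPM), and the 3 plasma cell genes had 18.6 to 67.1 CPM. Of the T cell genes 4 of 5 had no peak at their start (Cd3e, Cd3g, Cd4 and Cd8a) and Lck had 28.3 CPM. Of the 4 myeloid genes Lyz2 and Itgam had none and Csf1r and Adgre1 had 1.38 and 1.81 CPM, and of the 3 erythroid genes Gata1 had none, Klf1 had 47.7 CPM and Hbb-bt had 10.3 CPM. In the 11 peaks of the Y chromosome before 10 Mb, 9 libraries (2 WT, 2 C, 3 K and 2 CK) had 1421 fragments or more and the other 8 had at most 1, beside that description of the mice as females. None of the members with a stepped pattern described below parted the libraries as the Y chromosome did.

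To find peaks that part the mice into 2 sets, the 17 libraries were ordered by log2 CPM at each peak without use of genotype. A peak was called 2-level when its largest gap between neighbouring libraries was at least 1, or 2-fold, with at least 2 libraries on each side. Runs of 2-level peaks at most 1 Mb apart that parted the same libraries, with at most 1 library placed differently, were called blocks. By this rule 10 of the 973 members were 2-level, beside 0.246% of all peaks (161 of 65483), with 4 in window A, 2 in window B, none in window C and 4 in window D. The other 4032 peaks of chromosome 11 held 2. All 10 members parted every WT library from every C library and were among the peaks called in C against WT. The choice of the windows favours such peaks, so their share beside that of all peaks is no result about the windows. The K and CK libraries are not compared in that contrast, but here they share its fit and its estimate of the spread.

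The 300 reference bases at the centre of the 2-level peak with the largest gap in windows A, B and D show where these peaks lie. They were read from the RefSeq copy of the GRCm38 assembly, which is the same build as mm10, on the plus strand, and capitals mark bases that the reference masks as repeats. The first, chr11:32908627-32908926, lies in an intron of the noncoding gene Gm12111, the second, chr11:44510484-44510783, lies between genes near Rnf145, and the third, chr11:87841240-87841539, lies between genes near Mks1.
Window A: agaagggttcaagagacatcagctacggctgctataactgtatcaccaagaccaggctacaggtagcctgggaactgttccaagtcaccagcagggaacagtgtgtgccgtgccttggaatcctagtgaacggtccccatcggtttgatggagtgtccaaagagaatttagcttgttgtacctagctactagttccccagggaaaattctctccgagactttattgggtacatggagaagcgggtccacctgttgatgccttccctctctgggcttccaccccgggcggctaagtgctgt
Window B: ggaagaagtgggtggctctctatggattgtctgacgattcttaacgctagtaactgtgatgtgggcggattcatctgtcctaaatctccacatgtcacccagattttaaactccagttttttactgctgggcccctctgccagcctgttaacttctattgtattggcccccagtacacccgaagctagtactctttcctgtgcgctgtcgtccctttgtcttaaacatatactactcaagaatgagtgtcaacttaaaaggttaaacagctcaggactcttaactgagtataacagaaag
Window D: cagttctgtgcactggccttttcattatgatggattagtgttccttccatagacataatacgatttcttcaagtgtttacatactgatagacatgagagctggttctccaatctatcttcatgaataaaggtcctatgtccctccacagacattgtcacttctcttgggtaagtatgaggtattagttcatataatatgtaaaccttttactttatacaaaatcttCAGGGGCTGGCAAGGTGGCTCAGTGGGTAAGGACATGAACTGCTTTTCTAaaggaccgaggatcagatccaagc
The first and second hold no masked base, and the third holds 50, and GC content was 52.3% in the first and 44.3% in the second. These are the reference bases and not those of the mice.

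In windows A and B all 6 of the 2-level peaks parted the libraries alike. The 4 WT libraries and K replicates 1, 2 and 4 were low, and the 4 C libraries, K replicate 3 and the 5 CK libraries were high. Thus 1 mouse of the K group lay with the C and CK mice at each of these peaks, as can be seen in the plot of CPM by library.

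The largest gap was at the peak of chromosome 11 from 32908339 to 32909214 in an intron of Gm12111, 83734 bp from the nearest protein-coding start, that of Smim23. Its accessibility was 0.16, 0.366, 0.141 and 0.111 CPM in WT replicates 1 to 4, and 6.14, 6.9, 5.41 and 6 CPM in C replicates 1 to 4. In K replicates 1 to 4 it was 0.265, 0, 6.65 and 0.185 CPM, and in CK replicates 1 to 5 it was 6.01, 6.84, 5.54, 5.83 and 7.32 CPM. K replicate 3 lay among the C and CK libraries, the other K libraries overlapped with WT, and the gap between the sets was 3.56 on the log2 scale. The 0 in K replicate 2 allows up to 0.17 CPM, a limit of 3 counts that covers counting error only.

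The neighbouring peak from 32911280 to 32912421 in the same intron had the same order with more fragments. It had 1.6, 1.25, 1.03 and 1.16 CPM in the WT libraries, 15.2, 16.7, 18 and 18.1 CPM in the C libraries, 1.11, 1.25, 20.4 and 1.8 CPM in the K libraries and 16.2, 17.4, 17.4, 16.6 and 16.1 CPM in the CK libraries. K replicate 3 had the highest value of all 17 libraries there, and the gap was 3.01.

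The third peak of this block, from 32189791 to 32190877, overlaps an exon of Il9r, which encodes the receptor chain for interleukin 9. Its accessibility was 0.372, 0.313, 0.141 and 0.111 CPM in WT and 5.29, 4.47, 7.23 and 6.53 CPM in C. In K it was 0.425, 0.566, 3.72 and 0.323 CPM, and in CK it was 3.45, 4.85, 6.01, 3.14 and 4.9 CPM, with a gap of 2.28. The start site of Il9r, 9345 bp away, had no such gap, since its promoter peak had a largest gap of 0.18.

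The first block thus ran from the Il9r peak to the second Gm12111 peak over 723 kb and held 3 of the 63 members that lie in that stretch. A further peak of window A, from 34143852 to 34144681, lay over 1 Mb away and parted the same libraries, with 0.461 to 0.997 CPM in the low libraries and 2.49 to 4.4 CPM in the high ones. In window B the second block of 2 peaks ran over 878 kb and spanned 23 members. This block was lost when a mean of 20 fragments per library was required, since its first peak had a mean of 13.9. The block was also lost when neighbours had to lie within 0.5 Mb. Its first peak, from 43632680 to 43633042, was 31140 bp from the start of Fabp6, a bile acid binding protein of the gut, and had 0 to 0.141 CPM in the low libraries against 0.598 to 1.57 CPM in the high ones. Its last peak, from 44510111 to 44511155, lay 7809 bp from a start of Rnf145, which encodes a ubiquitin ligase of the endoplasmic reticulum.

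At the Rnf145 peak the WT libraries had 0.16, 0.104, 0.281 and 0.166 CPM and the C libraries had 2.83, 2.75, 3.64 and 3.82 CPM. The K libraries had 0.371, 0.396, 4.13 and 0 CPM, and the CK libraries had 2.81, 3.18, 4.12, 2.49 and 3 CPM. K replicate 3 again stood with C and CK, 11.6 Mb away from the Gm12111 peaks, and the gap was 2.38.

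**Figure D1:**
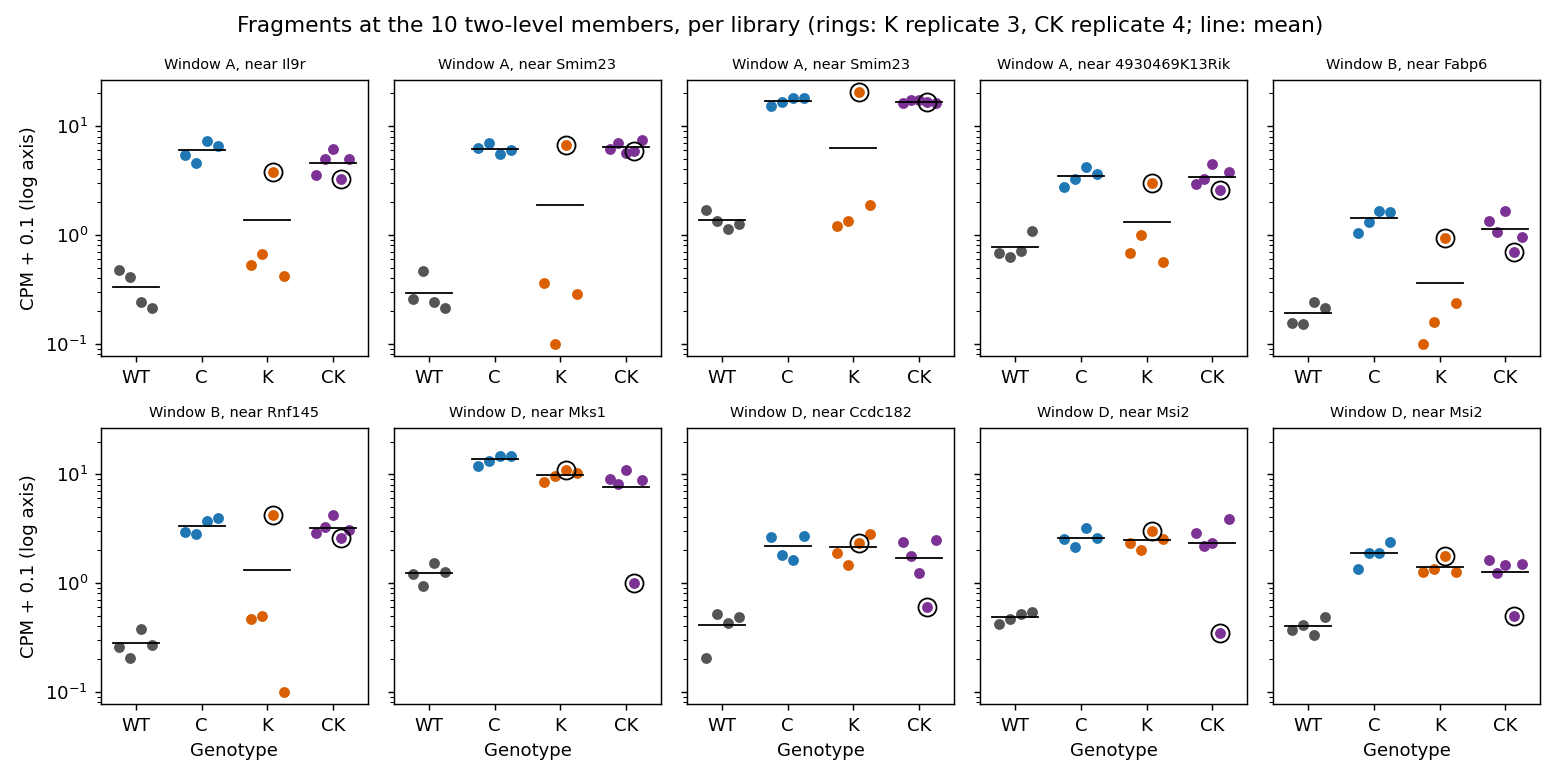
Accessibility (CPM + 0.1, log axis) of the 10 members called 2-level in each of 17 libraries, grouped by genotype, with 1 panel per peak named by the gene with the nearest protein-coding start. Points are libraries, lines are genotype means, and rings mark K replicate 3 and CK replicate 4: the K ring lies with C and CK in windows A and B, and the CK ring lies with WT in window D.

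Window D held the third block, of 4 peaks over 839 kb among 70 members, and it parted other libraries. Here the 4 WT libraries and CK replicate 4 were low and all other C, K and CK libraries were high. The block began between genes, 11100 bp from the start of Mks1, which encodes a protein of the ciliary transition zone, and went on inside Msi2, which encodes the RNA-binding protein Musashi-2.

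At the first peak, from 87840663 to 87842115, the WT libraries had 1.12, 0.836, 1.41 and 1.16 CPM, the C libraries had 11.9, 13.2, 14.7 and 14.7 CPM, and the K libraries had 8.38, 9.63, 10.8 and 10.2 CPM. The CK libraries had 8.96, 8.02, 10.8, 0.897 and 8.7 CPM. CK replicate 4 lay inside the range of WT, and the gap to the next library was 2.43.

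The 3 other peaks of the block lie in introns of Msi2. From 88441957 to 88442762 the WT libraries had 0.319, 0.366, 0.422 and 0.443 CPM, CK replicate 4 had 0.249 CPM, and the others had 1.93 to 3.75 CPM. From 88678261 to 88679415 the low libraries had 0.234 to 0.398 CPM and the high ones 1.13 to 2.28 CPM. From 88394549 to 88395390 they had 0.106 to 0.498 CPM and 1.14 to 2.72 CPM, with a gap of 1.04, close to the limit of 1. CK replicate 4 was in the low set at every peak of the block, and K replicate 3 in the high set, so that the mouse that stood apart in windows A and B did not do so in window D.

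**Figure D2:**
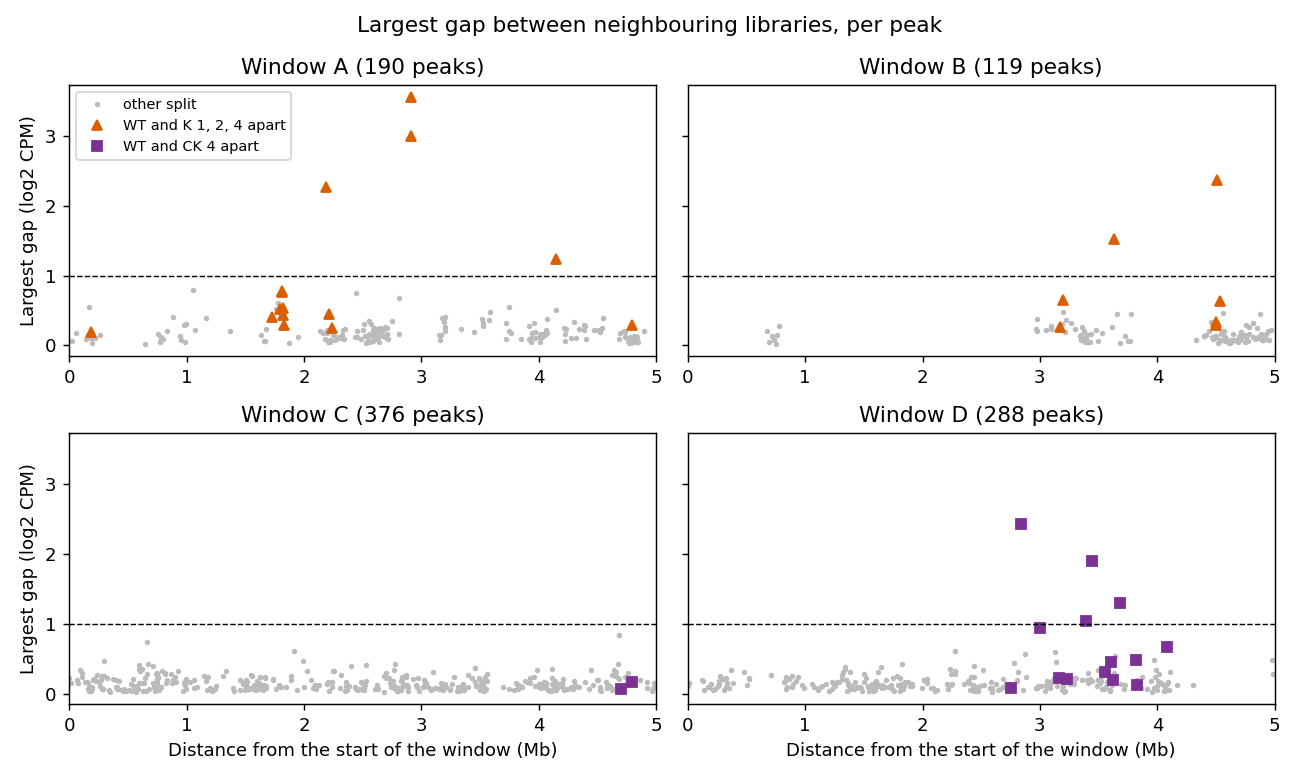
Largest gap between neighbouring libraries (log2 CPM) at each member against the distance from the start of its window (Mb), with 1 panel per window. Triangles part the WT libraries and K replicates 1, 2 and 4 from the rest and lie in windows A and B, squares part the WT libraries and CK replicate 4 from the rest, grey points part other sets, and the dashed line is the limit of 1, which no member of window C reaches.

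A smaller gap of 0.4, with a mean of at least 20 fragments per library, was then allowed, a limit set after the data had been seen. It took in 38 members, beside 1.82% of all peaks with that mean (1022 of 56143), with 18 in window A, 7 in B, 4 in C and 9 in D. The split of windows A and B was found at 11 members of A and 3 of B, at 1 peak in the rest of chromosome 11 and at 0 of the 934 such peaks on other chromosomes. The split of window D was found at 7 members of D and at no other of these peaks. All members with either split were among the peaks called in C against WT. The choice of the windows favours such peaks, so these counts too are no result about the windows.

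Of the 11 members of window A with this split, 4 had WT low, and these were the 4 found at a gap of 1. The 7 added ones all had WT high. In window D WT was low at all 7 members with its split. The members with WT high in window A began at the peak from 31732414 to 31734472, picked after its values were seen, and included 5 peaks at the noncoding gene D630024D03Rik. Among these the peak from 31814396 to 31816010, in an intron, had 29.9, 30.4, 28.8 and 32.7 CPM in WT, 13.9, 13.6, 15.5 and 14.5 CPM in C, 29.7, 29.7, 16.8 and 30.7 CPM in K, and 14.9, 14.3, 15.7, 16.3 and 14.8 CPM in CK. K replicate 3 was again with C and CK, now as a low library.

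Promoters took part too. The peaks of Rhbdf1 and Atp10b described next were picked after their values were seen. The start of Rhbdf1, which encodes an inactive rhomboid protein, had a peak from 32216748 to 32217505 with 11.7 to 13.2 CPM in the WT libraries and K replicates 1, 2 and 4 and 6.58 to 8.58 CPM in the rest. In window B the peak of the Atp10b intron from 43198554 to 43199958 had 12.3 to 15.7 CPM in the same high set and 6.08 to 7.78 CPM in the low set. Atp10b encodes a lipid flippase. From the first to the last of these peaks in windows A and B lay 12.8 Mb, and the stretch of 9.05 Mb between the last in A and the first in B held 57 peaks with a mean of at least 20 fragments, none of them parting the libraries this way at this gap.

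**Figure D3:**
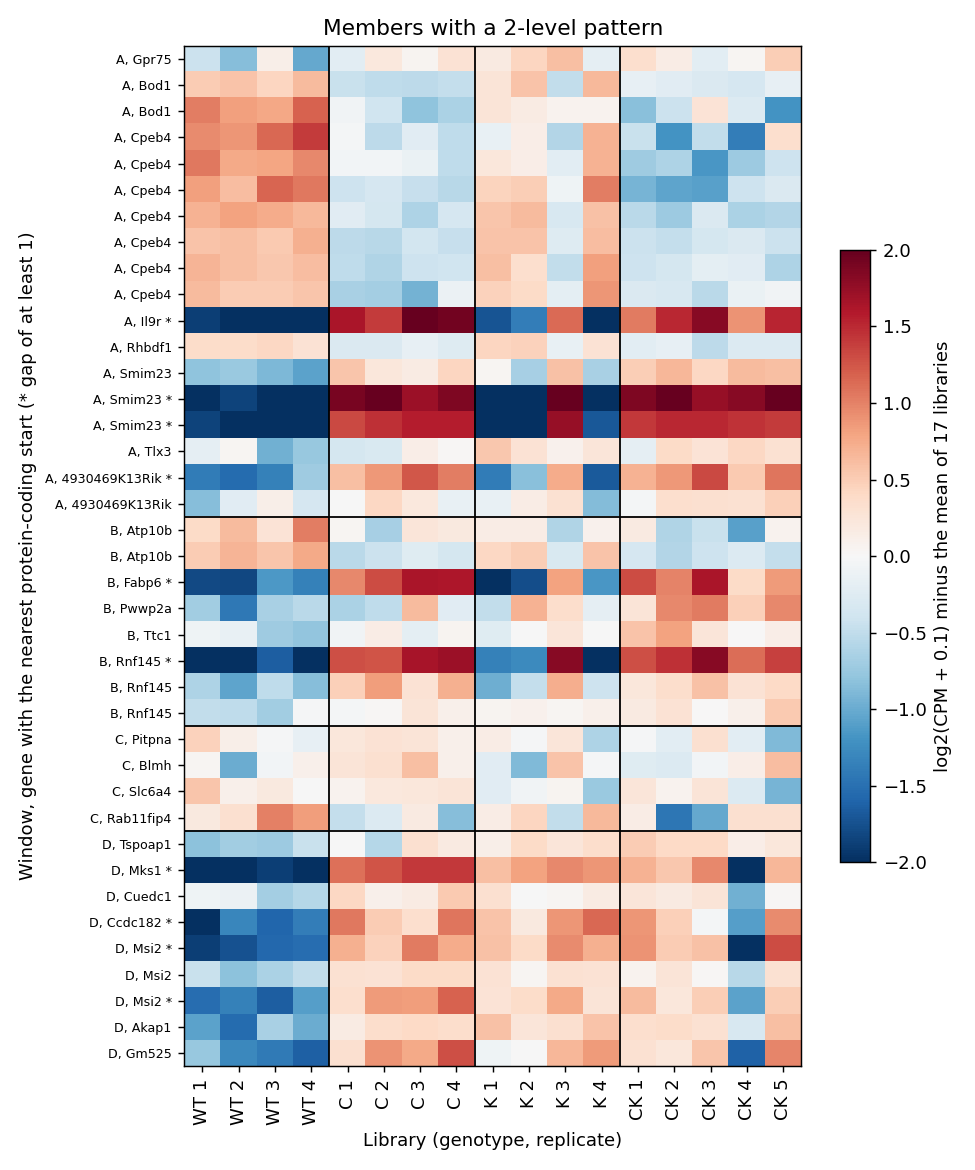
Deviation of log2(CPM + 0.1) from the mean of 17 libraries (colour) at the members called 2-level at a gap of 1 (starred) or of 0.4 with a mean of at least 20 fragments, in order along the chromosome, against library. In windows A and B K replicate 3 carries the colours of C and CK, and in window D CK replicate 4 carries those of WT.

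Outside the windows 1 of the 2 peaks of chromosome 11 that were 2-level at a gap of 1 carried the set of windows A and B. A peak from 29218754 to 29219536, 5130 bp from the start of Ppp4r3b, a phosphatase subunit, had 0.104 to 0.396 CPM in the WT libraries and K replicates 1, 2 and 4 and 1.84 to 3.49 CPM in the rest. A peak from 46836213 to 46837659 near Timd4, a receptor for phosphatidylserine, had CK replicate 4 in the low set as well, with 3 to 4.67 CPM against 8.66 to 11.2 CPM. Both peaks were picked after their values were seen. They lie in the 5 Mb windows with 2 C changes each, the next most after the windows chosen, which had 17 (A), 6 (B), 4 (C) and 11 (D). The other peak with a gap of 1, from 116388772 to 116390938 near Rnf157, was picked in the same way and parted the C libraries themselves. C replicate 2, K replicates 2 and 3 and CK replicates 2 to 5 had 1.89 to 3.63 CPM there and the rest had 13.9 to 22 CPM.

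The K and CK libraries are not compared in C against WT but share its fit and its estimate of the spread. That fit called 38 members in C, 43 without K replicate 3 and 45 without CK replicate 4. Read on their own, the K and CK libraries also gave the split of windows A and B. Over these 9 libraries 6 members were 2-level, beside 0.247% of all peaks (162 of 65483), all in windows A and B, and all 6 parted K replicates 1, 2 and 4 from the rest. These 6 are peaks already found 2-level over the 17 libraries and called in C against WT, so they are no separate support. Window D had none, since a single library apart does not meet the rule. That split occurred at 1 of the 4 other 2-level peaks of chromosome 11 and at 0 of the 152 on other chromosomes. At a gap of 0.4, which 3.13% of peaks with the mean fragment count reached, it occurred at 12 members of A, 4 of B, 2 peaks in the rest of chromosome 11 and 3 elsewhere.

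Each library was also set against the others of its own genotype, a comparison added after the data had been seen. K replicate 3 lay at least 1 (log2) away from every other K library at 6 of 856 members, beside 0.0659% of all peaks (37 of 56143), and was higher at all 6, of which 4 were in window A and 2 in B. CK replicate 4 lay apart from every other CK library at 6 members, beside 0.0623% (35 of 56143), and was lower at all 6, of which 5 were in window D. The sixth, picked after its values were seen, from 75622274 to 75624081 in an intron of Pitpna, a phospholipid transfer protein, had 5.63 CPM in CK replicate 4 and 12.6 to 13.4 CPM in the other CK libraries. All 6 members of K replicate 3 and the 5 of CK replicate 4 in window D were among the peaks called in C against WT. The choice of the windows favours such peaks, so these counts are no separate support. The 15 other libraries lay apart at 0 or 1 member each. Over all peaks they did so at 10 to 120, a range that holds the 37 of K replicate 3 and the 35 of CK replicate 4.

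The peaks that had changed in C show which side each K and CK mouse took. There were 38 such members, beside 0.16% of all peaks, with 18 higher and 20 lower in C, and the count says nothing about the windows because it chose them. K replicate 3 was nearer the C mean than the WT mean at 17 of 17 of these in window A and 6 of 6 in window B, whereas K replicates 1, 2 and 4 were nearer C at 3, 3 and 1 of 17 and at 0 of 6. In window D all 4 K libraries were nearer C at 10 or 11 of 11. The CK libraries were nearer C at 16 or 17 of 17 in A and 6 of 6 in B, and in D at 11 of 11 except for CK replicate 4, with 2 of 11. At the 62 C changes on other chromosomes the K libraries were nearer C at 33 to 40, with K replicate 3 at 40, and the CK libraries at 44 to 59.

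**Figure D4:**
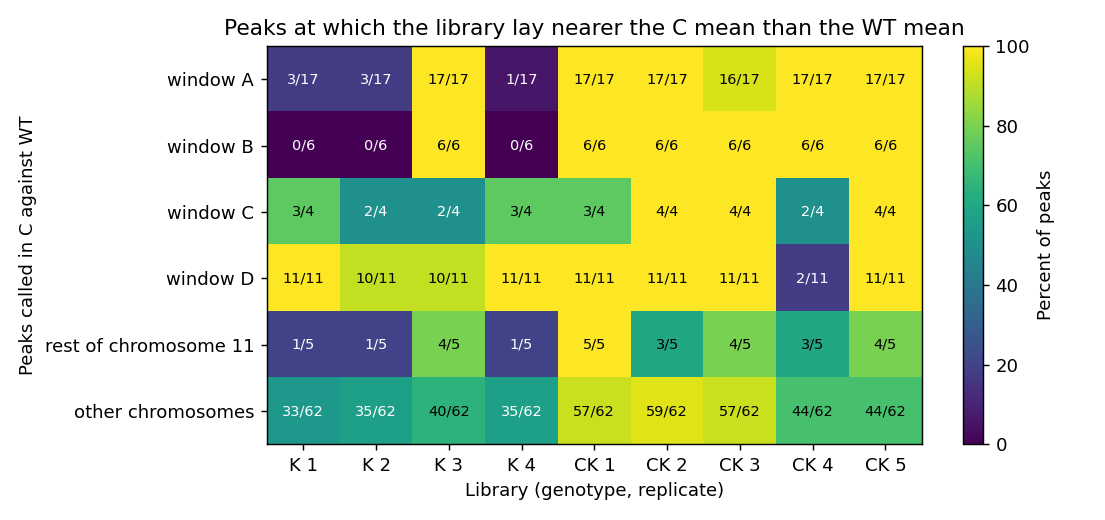
Number of the peaks called in C against WT at which each K or CK library had log2 CPM nearer the C mean than the WT mean, out of those called, by window and for the rest of the genome (colour: percent). K replicate 3 differs from the other K libraries in windows A and B (17/17 and 6/6), and CK replicate 4 from the other CK libraries in window D (2/11).

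Window C had the most peaks, 376, and none was 2-level at a gap of 1, beside 0.246% of all peaks. At so low a share, finding none among 376 peaks does not set the window apart. The window had 4 C changes. Of these a pair lay in introns of Rab11fip4, an effector of the RAB11 GTPase, and 1 in an intron of Nf1, which encodes the RAS inhibitor neurofibromin. At the Rab11fip4 peak from 79658259 to 79658695 WT had 8.94, 8.56, 7.87 and 9.25 CPM and C had 4.39, 5.1, 5 and 4.46 CPM. K had 4.67, 4.36, 4.61 and 4.71 CPM and CK 4.78, 3.72, 5.77, 6.33 and 3.98 CPM. All libraries with a floxed allele were below all WT libraries there, so this peak parted WT from the rest and not mice of 1 genotype. It was picked after its values were seen, as was the C change from 79755882 to 79757390. There the WT libraries had 8.67 to 11.7 CPM, CK replicate 4 had 9.76 CPM and the other CK libraries had 5.77 to 6.86 CPM. Over the 4 C changes of window C, CK replicate 4 was nearer the C mean at 2 and the other CK libraries at 3 or 4. The K libraries were nearer the C mean at 2 or 3.

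Accessibility in CK was then tested against K over all peaks. Neither group is compared in the contrast that chose the windows, though all libraries share 1 fit. With edgeR and an adjusted p below 0.01, 2 members were called, both lower in CK, beside 0.00916% of all peaks (6 of 65483), and both lay in introns of D630024D03Rik. The peak from 31814396 to 31816010 had a mean of 26.7 ± 6.64 CPM in K (SD, n = 4) and 15.2 ± 0.798 CPM in CK (SD, n = 5), a log2 fold change of -0.81 (SE 0.11, edgeR adjusted p = 0.00297). The peak from 31812194 to 31812921 had 7.84 ± 2.13 CPM in K and 3.97 ± 0.486 CPM in CK, a log2 fold change of -0.98 (SE 0.15, edgeR adjusted p = 0.00852). In both, K replicate 3 lay within or near the CK range and the other K libraries above it.

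At the 2-level peaks of windows A and B the log2 fold changes of CK against K were 1.36 to 2 and none was called (edgeR adjusted p from 0.0947 to 0.453). At the Gm12111 peak with the largest gap the K mean was 1.77 ± 3.25 CPM (SD, n = 4), with an SD above its mean, and the CK mean was 6.31 ± 0.744 CPM (SD, n = 5). In window D the values were -0.39 to -0.11 (edgeR adjusted p from 0.841 to 0.98).

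Leaving out K replicate 3 moved the count from 2 to 19 members, 7 higher and 12 lower in CK, beside 0.0489% of all peaks (32 of 65483), so that 19 of the 32 peaks called lay in windows A and B. All 6 of the 2-level peaks of A and B were then called. At the Gm12111 peak from 32908339 to 32909214 the log2 fold change was 5.29 (SE 0.3, edgeR adjusted p = 8.34e-11), and at the Il9r peak it was 3.36 (SE 0.3, edgeR adjusted p = 5.43e-07). The Nprl3 promoter peak, also picked after its values were seen, from 32237145 to 32238872 was called as lower (-0.67, SE 0.059, edgeR adjusted p = 4.65e-07) after -0.52 (edgeR adjusted p = 0.0341) with all libraries. Nprl3 encodes a subunit of the GATOR1 complex, which restrains mTORC1. This fit left out a mouse because of where it lay, so its p-values only describe the remaining libraries. They are no test of CK against K.

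Other libraries bore on the count as well. It was 0 of 973 without K replicate 1, K replicate 4, CK replicate 2 or CK replicate 3, with 72 to 91 members at an unadjusted p below 0.05 (7.4% to 9.35%, beside 5.69% to 7.57% of all peaks), and 2 without C replicate 3 or CK replicate 5. It was 1 without any other single library. DESeq2 called 9 of the 720 members it gave an adjusted p, all lower in CK, beside 0.0818% of the peaks it gave one (38 of 46435).

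**Figure D5:**
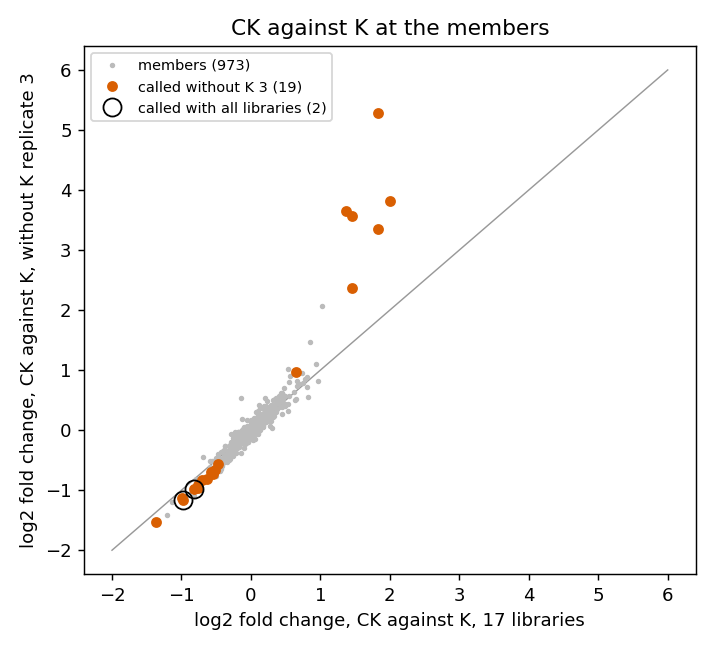
Log2 fold change of CK against K at the 973 members with all 17 libraries (horizontal) and without K replicate 3 (vertical), with the line of equal values in grey. Filled points are the 19 members called without that library and rings the 2 called with all libraries. The 6 filled points from 2.36 to 5.29 on the vertical axis lie at 1.36 to 2 on the horizontal axis.

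Against WT, whose libraries also chose the windows, 41 members were called in K, 19 higher and 22 lower (4.21% of members beside 1.48% of all peaks), and 23 of them lay in window D. In CK 128 were called, 56 higher and 72 lower (13.2% beside 6.84%), with 42 in A, 21 in B, 28 in C and 37 in D. The K count was 30 without K replicate 3, 23 without WT replicate 3, 21 without WT replicate 4 and 20 without K replicate 1, and the CK count was 85 without WT replicate 4. At the Il9r peak the log2 fold change against WT was 4.62 in C (SE 0.53), 2.39 in K (SE 0.69) and 4.22 in CK (SE 0.54), and at the peak near Mks1 it was 3.57 (SE 0.38), 3.1 (SE 0.39) and 2.71 (SE 0.39). The values share the WT libraries and are given side by side as a description.

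The blocks held few of the peaks in their stretch, and the median gap over all members was 0.137, beside 0.132 over all peaks. The 2 members with the highest mean in each window had gaps of 0.02 to 0.08. Counting error is smallest at such abundant peaks, so they do not stand for the other members. At the start of Snrnp25, a protein of the minor spliceosome, accessibility was 76.4 to 87.5 CPM over the 17 libraries, and at the start of Fbxw11, a substrate adaptor of the SCF ubiquitin ligase, it was 77.4 to 96.3 CPM. In window B the peaks within and 3795 bp from Ebf1, which encodes a transcription factor of B cell identity, had 78.4 to 92.5 CPM and 90.4 to 100 CPM. At Myo1c in window C the range was 238 to 276 CPM, at the start of Tlcd2 and Mir22hg it was 141 to 159 CPM, and at the start of the phosphatase gene Mtmr4 in window D it was 132 to 146 CPM. None of these 7 peaks was called in any of the 4 contrasts.

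The eighth abundant peak lay over Mir142, a microRNA gene of blood cells, from 87756496 to 87760016 in window D, and was called in C, K and CK against WT. It had 139, 152, 145 and 144 CPM in WT, 126, 117, 109 and 114 CPM in C, 127, 121, 120 and 115 CPM in K and 109, 110, 109, 134 and 106 CPM in CK. CK replicate 4 stood above the other CK, K and C libraries and below WT, 80.6 kb from the start of the block in window D. The log2 fold change against WT was -0.32 in C, -0.27 in K and -0.35 in CK (edgeR adjusted p of 0.0089, 0.00894 and 0.000165).

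Promoters of 34 genes of B cells, proliferation, DNA repair and other blood lineages that lie in the windows were also read. Of these 31 had a promoter peak, 40 peaks in all, and the start sites of the globin genes Hba-a1 and Hba-a2 and the myeloid enzyme gene Mpo had none. No promoter peak of the list was 2-level at a gap of 1, and the median gap was 0.0696, beside 0.137 over all members. These medians take no account of abundance, and counting error widens gaps where fragments are few. In CK against K none was called by edgeR or DESeq2, with 2 at an unadjusted p below 0.05, and the median log2 fold change was -0.012, beside 0.0019 over all peaks. Against WT, whose libraries also chose the windows, 4 of the 40 (10%) were called in both K and CK, with the same peaks lower and the same peaks higher in each. The shares were 1.48% and 6.84% of all peaks and 4.21% and 13.2% of all members, so the list was below the members in CK. Of the 4 peaks 3 are neighbours at Mir142 and Tspoap1, from 87756496 to 87779015. Lcp2, which encodes the adaptor SLP-76, was lower (-0.57 in K, -0.56 in CK), as was the Mir142 peak, which lies 525 bp from a start of Tspoap1 and counts for both genes. The other 2 promoter peaks of Tspoap1 were higher (0.42 and 1 in K, 0.37 and 1.07 in CK).

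The 2-level members were set against the 934 members called by neither rule for position and sequence, which the rule did not use. The median distance to a start was 8126 bp beside 6460 bp. Only 1 of the 10 lay within 1 kb of a start, beside 26.6% of the others, 5 lay in introns, 4 between genes and 1 in an exon. Median GC content was 48.5% beside 48.4%, and the median share of repeat-masked bases was 10.7% beside 14.4%. With 10 peaks these are descriptions. Summed over a window, accessibility differed by at most 1.11 times between the highest and the lowest library, in window B.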

How the data were processed

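ATAC-seq fragments in GC B cells of 17 mice were compared over 65483 peaks. Per the file headers, the authors counted fragments in 1 consensus peak set with featureCounts 2.0.1, allowing a fragment to count in every peak it overlapped by the set share. The counts are deposited without normalization, and the study gives alignment to mm10 with the nf-core ATAC-seq pipeline. Each library's depth, 17483706 to 21857738 fragments in peaks, bounds the precision, and intervals cover counting error only. Peaks called once over all samples miss sites open in few mice.

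Here counts were scaled to CPM with TMM factors (edgeR 4.0.16), and log2 CPM used a prior count of 2. Peaks with under 10 counts in all were to be removed, which removed 0. Genotypes were compared with the edgeR quasi-likelihood test over all 17 libraries, with Benjamini-Hochberg adjustment over all peaks and a threshold of 0.01, and DESeq2 1.42.0 was an alternative. The edgeR test and the search for 2-level peaks were tested on simulated data. The windows, members, gene lists and rules were chosen with earlier results of these data known. Peaks named were, in each window, the 4 members with the largest gaps among the 2-level ones and the 2 with the highest mean CPM, every member called in CK against K, block ends, and promoter peaks (within 1 kb of a start) of the listed genes. All other peaks named were picked after their values were seen. Genes come from GENCODE vM21 and peak context is that of the peak's midpoint. The same replicate numbers of WT and C deviated together (Pearson r of 0.14 to 0.224 across peaks), which meets the rule for pairing, whereas those of the other genotypes did not all do so. Sorted centroblast and centrocyte libraries of the series were not analysed here.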

Additional observations from a re-analysis of the deposited data

Results flagged for a closer look

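The values of each of the 4 genotypes at each of 20 named peaks, 80 sets in all, were searched for a library whose distance from the nearest other exceeded Dixon's 95% limit on log2 CPM. There were 9, beside about 4 that chance gives at 1 in 20. Most of the peaks were named for a large gap or for a call in CK against K, so these values describe the named peaks and are no further evidence that K replicate 3 or CK replicate 4 stands apart. K replicate 3 was apart at 3 peaks of window A, with 4.66 CPM from 31812194 to 31812921 beside 8.65 to 9.17 CPM in the other K libraries, 16.8 CPM from 31814396 to 31816010 beside 29.7 to 30.7 CPM, and 20.4 CPM from 32911280 to 32912421 beside 1.11 to 1.8 CPM. CK replicate 4 was apart at 4 peaks of window D. It had 134 CPM at the Mir142 peak beside 106 to 110 CPM in the other CK libraries and 0.897 CPM near Mks1 beside 8.02 to 10.8 CPM. In Msi2 it had 0.249 CPM from 88441957 to 88442762 beside 2.1 to 3.75 CPM, and 0.398 CPM from 88678261 to 88679415 beside 1.13 to 1.53 CPM. The other 2 were small in size, CK replicate 2 at the Fbxw11 promoter (82.5 CPM beside 86.6 to 87.8 CPM) and C replicate 4 at the start of Tlcd2 (151 CPM beside 146 CPM).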

How the results depend on the processing

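The 10 members called 2-level became 38 at a gap of 0.4 with a mean of 20 fragments (6 became 44 over the K and CK libraries), and over K and CK 16 when 1 library on a side sufficed. The 3 blocks with 9 members became 2 blocks with 5 members when neighbours had to lie within 0.5 Mb. They became 2 blocks with 7 members when a mean of 20 fragments per library was required. Both settings lost the block of window B. Leaving out 1 library gave 10 to 11 2-level members, 6 to 7 over K and CK, 3 to 3 blocks and 9 to 10 members in blocks.

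The members called in CK against K, 2, were 8 at an adjusted p of 0.05, 9 by DESeq2, 1 with total counts, 1 with robust dispersion estimates, 0 in edgeR with the compared genotypes only (84 at an unadjusted p below 0.05), 0 with a covariate from all Y chromosome peaks (75) but 2 with one from those before 10 Mb, 19 without K replicate 3 and CK replicate 4, and 0 to 19 leaving out 1 library. In K against WT, 41 became 98 at 0.05, 23 with a fold limit of 1.5, 25 with the Y covariate and 20 to 44 leaving out 1 library. In CK against WT, 128 became 229, 81, 42 and 85 to 131. In C against WT, 38 became 58 at 0.05 and, without a covariate, 50 by DESeq2. With the Y covariate in edgeR the count was 0 (128 at an unadjusted p below 0.05). Leaving out 1 library it was 21 to 45, with 21 to 24 without WT replicate 1, 2 or 3 or C replicate 2 or 4. Of the fragments that gave this covariate, 72.3% to 100% per library lay in Y peaks from 10 Mb on, where each library held 3840 to 18945. The covariate from peaks before 10 Mb alone was added after seeing the data and left 44 members called for C, 42 for K and 148 for CK, each against WT. The cause of these shifts was not tested. With the replicate block, in which CK replicate 5 is left out, the counts were 4 in CK against K, 66 in K against WT, 160 in CK against WT and 51 in C against WT. Between K and CK libraries of the same number Pearson r was 0.00629 to 0.126. The labels do not say whether these numbers pair the mice. The 20 named peaks were refitted in CK against K, 520 refits in all. Only the 2 called peaks could lose a call. Their refits lost it 25 times, 18 at the peak from 31812194 to 31812921 and 7 at that from 31814396 to 31816010. No called value reversed. In all, 12 refits gained a call, all at the 6 peaks called 2-level in windows A and B, and 9 uncalled values changed sign. Peaks with few fragments limit these counts, and 3 fragments equal 0.135 to 0.173 CPM.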
